A study of Mus musculus with 20 samples.

Results

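The renin-angiotensin and endothelin systems were described here through 9 genes, taken by symbol from the 54532 rows of the series' count table. They are the ligand precursors Agt and Edn1, the processing enzymes Ace and Ece1, and the receptors Agtr1a, Agtr1b, Agtr2, Ednra and Ednrb. The libraries hold RNA of thoracic aorta from C57BL/6J mice, and 4 groups of 5 libraries were compared: descending aorta after 1 week of β-aminopropionitrile (BAPN), descending aorta after 1 week of water, ascending aorta after 1 week of BAPN and ascending aorta after 1 week of water. BAPN inhibits the lysyl oxidases, through which elastin and collagen become cross-linked. The dose, the route, the age of the mice and the number of animals behind a library were not given in the sources used here, so each p-value reflects variation among these libraries alone, which may be technical. Totals ran from 15744725 to 23292294 counts per library. Xist had 1 to 12 counts and the Y-linked Ddx3y 2198 to 3400 counts in every library. This bears on Agtr2, the X-linked member, which was compared between libraries alike in these 2 genes.

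Angiotensinogen (Agt) is cut by renin to angiotensin I, which angiotensin-converting enzyme (Ace) on endothelial cells turns into angiotensin II. In rodents the type 1 receptor is encoded by Agtr1a and Agtr1b, couples to Gq and constricts smooth muscle, while the type 2 receptor (Agtr2) is mainly fetal and generally opposes it. Preproendothelin-1 (Edn1), made chiefly by endothelium, is matured by endothelin-converting enzyme 1 (Ece1) and acts on a smooth muscle receptor that constricts (Ednra) and on an endothelial receptor that releases nitric oxide and clears the peptide (Ednrb, also found on smooth muscle, Schwann cells and melanocytes). Most angiotensinogen in the blood comes from liver, so its transcript in the vessel wall reports local synthesis only.

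Levels are CPM, that is counts scaled to a common library size after correction with the trimmed mean of M values (TMM), and levels of different genes are compared as CPM per kilobase of merged exons. Ace stood highest by this measure, at 93.9 averaged over the 4 groups, followed by Ece1 at 46.5 and Edn1 at 17.6. Ednra (3.32) and Ednrb (3.29) came next and by this length did not differ beyond the spread of their libraries, and Agtr1a stood at 1.94. The lowest were Agtr1b at 0.389, Agtr2 at 0.339 and Agt at 0.217 CPM per kilobase. The enzymes were thus far more abundant as transcripts than the receptors they supply with ligand.

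The order of the 3 lowest members depended on the region. In the descending aorta Agtr1b (0.649 ± 0.245 with BAPN and 0.664 ± 0.272 with water, SD, n = 5 each) stood above Agt (0.107 ± 0.080 with BAPN and 0.0598 ± 0.0579 with water), all in CPM per kilobase. In the ascending aorta Agtr1b (0.112 ± 0.095 with BAPN and 0.130 ± 0.062 with water) stood below Agt (0.332 ± 0.081 with BAPN and 0.368 ± 0.163 with water). With the longest annotated transcript as the length, the order of the 9 genes over all groups was the same, although Ednra, at 5.01, then stood above Ednrb, at 3.42, and Agtr1a stood at 2.46.

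**Figure D1:**
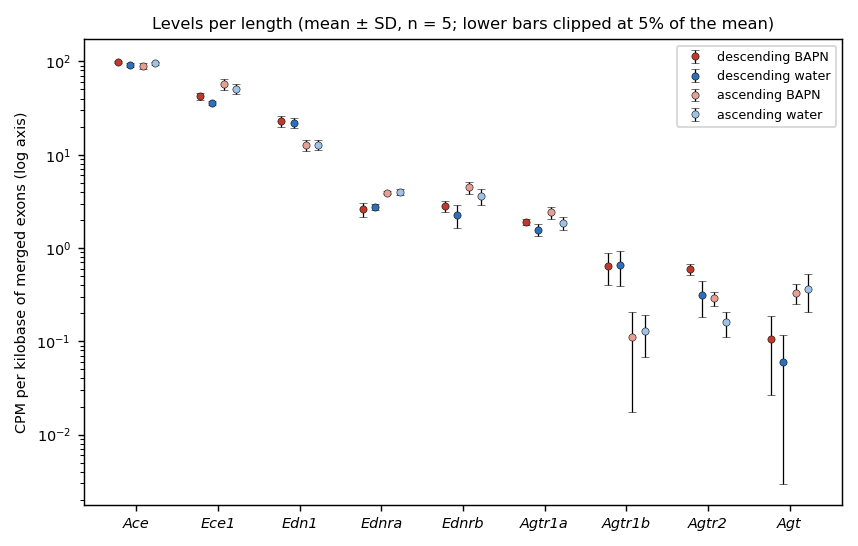
Mean level of each gene in CPM per kilobase of merged exons (log axis) in descending BAPN, descending water, ascending BAPN and ascending water libraries, with bars of 1 SD (n = 5 libraries; lower bars cut off at 5% of the mean). Ace averaged 93.9 and Agt 0.217 over the groups, and Agtr1b and Agt changed places between the regions.

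The regions were compared within each treatment, descending over ascending, in a model over all 20 libraries, and a call required an adjusted p under 0.05 after correction over all 15543 tested genes. Of the 9 members, 8 were called under BAPN, where 29.8% of all tested genes were called, and 7 under water, where 27.3% were. Both counts include Agt and Agtr1b. Agt passed the filter on low counts through its ascending libraries and Agtr1b through its descending ones. A difference in either was thus in part a condition of being tested. Edn1, Agtr1b and Agtr2 were higher in the descending aorta under both treatments, and Agt, Ece1, Ednra and Ednrb were lower under both. Ace was higher under BAPN, and Agtr1a passed the test under neither. The median log2 difference of the members was -0.32 under BAPN and -0.23 under water, against 0.009 over all tested genes in each. Libraries of the 2 regions did not overlap for 7 members under BAPN, against 21.4% of tested genes, and for 4 members under water, against 20.1%. Agt and Agtr1b are among the 7, and Agtr1b is among the 4. In whole tissue, fewer cells of a type and less RNA per cell cannot be told apart.

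**Figure D2:**
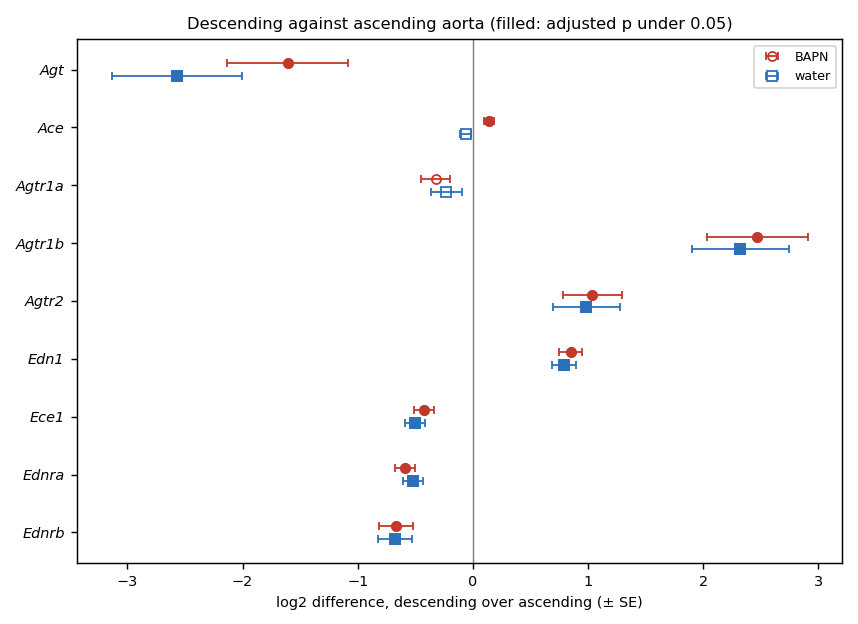
Log2 difference (± SE) of each gene between descending and ascending aorta, under BAPN (red circles) and under water (blue squares), with filled symbols for an adjusted p under 0.05. Agtr1b, Agtr2 and Edn1 lie right of 0 and Agt, Ece1, Ednra and Ednrb left of 0 under both treatments.

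Promoter sequences are shown for the 3 genes higher and for the 2 receptors lower in the descending aorta, so that the letters just upstream of the RefSeq starts of genes with opposite regional patterns can be read side by side. They are the 250 bases before the RefSeq start (build GRCm38.p6), on the gene's strand and 5′ to 3′, with motif matches in capitals. Sequences were matched for 8 of the 9 members, all but Agtr1a. The gene coordinates given below come from GENCODE, whose starts differ from those of RefSeq for some genes. By these coordinates the Ednrb window lies inside the gene, and the Agtr2 and Ednra windows reach into their genes.
Agtr1b, chr3:20367178-20367427, minus strand: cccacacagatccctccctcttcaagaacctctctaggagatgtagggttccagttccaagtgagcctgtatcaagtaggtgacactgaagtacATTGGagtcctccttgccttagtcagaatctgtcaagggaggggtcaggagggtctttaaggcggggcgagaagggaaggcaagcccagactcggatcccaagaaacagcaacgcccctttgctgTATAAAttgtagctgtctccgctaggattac
Agtr2, chrX:21484374-21484623, plus strand: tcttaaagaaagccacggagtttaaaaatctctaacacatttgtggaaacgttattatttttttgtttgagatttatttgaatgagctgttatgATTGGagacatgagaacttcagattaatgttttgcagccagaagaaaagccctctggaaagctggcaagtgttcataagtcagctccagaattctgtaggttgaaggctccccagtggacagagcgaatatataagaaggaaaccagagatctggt
Edn1, chr13:42301226-42301475, plus strand: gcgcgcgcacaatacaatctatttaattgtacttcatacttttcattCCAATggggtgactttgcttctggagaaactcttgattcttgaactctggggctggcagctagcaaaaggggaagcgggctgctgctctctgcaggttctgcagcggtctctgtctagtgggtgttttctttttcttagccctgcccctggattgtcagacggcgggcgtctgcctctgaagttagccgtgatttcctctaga
Ednra, chr8:77724453-77724702, minus strand: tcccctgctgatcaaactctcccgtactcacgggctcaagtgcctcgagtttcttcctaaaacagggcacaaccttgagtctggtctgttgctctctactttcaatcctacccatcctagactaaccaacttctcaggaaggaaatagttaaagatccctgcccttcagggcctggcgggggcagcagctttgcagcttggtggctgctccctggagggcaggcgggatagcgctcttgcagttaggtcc
Ednrb, chr14:103843702-103843951, minus strand: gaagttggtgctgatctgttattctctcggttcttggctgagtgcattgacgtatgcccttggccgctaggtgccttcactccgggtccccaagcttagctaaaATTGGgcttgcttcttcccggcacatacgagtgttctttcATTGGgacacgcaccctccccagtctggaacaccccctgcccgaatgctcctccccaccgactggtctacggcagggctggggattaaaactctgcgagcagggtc

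Motifs were searched on both strands as 6 short strings. Of 27025 RefSeq promoters of this length, 13% held TATAAA, the string bound by the TBP factor. The Sp1 box, GGGCGG, stood in 32.9%. The box of nuclear factor Y, CCAAT, stood in 34.5%. GATAAG, a site known from Gata2 and related factors, stood in 6.6%. The AP-1 site, with any base in its middle, TGANTCA, stood in 6.9%. The E-box, CACGTG, stood in 6.0%. No match of 1 string overlapped another in the 5 promoters shown. Agtr1b held TATAAA at 31 to 26 bases before the start and, on the reverse strand, CCAAT at 156 to 152. Agtr2 held CCAAT on the reverse strand at the same distance, Edn1 held CCAAT at 203 to 199, and Ednrb held it on the reverse strand at 146 to 142 and at 106 to 102. Among these 5, Ednra matched none of the 6 motifs. The promoter of Agt, lower in the descending aorta, also held TATAAA at 30 to 25. So no motif of the 6 was found in all 3 genes that were higher and missing from both receptors that were lower.

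Edn1 (ENSMUSG00000021367, chr13:42301476-42307990, plus strand) had 48.4, 44.9, 57.7, 53.2 and 41.7 CPM in descending BAPN libraries and 26.2, 24.1, 30.5, 31.6 and 23.9 CPM in ascending BAPN libraries. The water libraries had 49.96, 39.2, 51.2, 42.2 and 53.7 CPM in the descending and 23.4, 26.0, 31.4, 25.5 and 30.0 CPM in the ascending aorta. Every descending library stood above every ascending one under both treatments. The log2 difference was 0.85 (SE 0.10, adjusted p = 3.05e-07) under BAPN and 0.79 (SE 0.10, adjusted p = 8.21e-07) under water, a 1.8-fold and a 1.73-fold higher level. Exons of an antisense gene, Gm47118, overlap Edn1, and it had 61 counts over the 20 libraries. Agt (ENSMUSG00000031980, chr8:124556534-124569706, minus strand) was near the limit of detection, with 6, 0, 4, 6 and 2 counts in descending BAPN libraries against 14, 11, 11, 7 and 12 in ascending BAPN libraries. Libraries of the water groups had 1, 0, 1, 4 and 4 counts in the descending and 14, 4, 15, 19 and 19 in the ascending aorta. All but 1 of the ascending libraries had more counts than every descending library. Agt was lower in the descending aorta by a log2 difference of -1.61 (SE 0.52, adjusted p = 0.0206) under BAPN and -2.57 (SE 0.57, adjusted p = 0.000925) under water. The call under BAPN was lost without descending BAPN 2 (adjusted p = 0.0507) or 5 (0.0583). A count of 0 in a library allows up to 3 counts, for counting error only. Agt passed the filter on low counts through its ascending libraries and Agtr1b through its descending ones, so a difference in these 2 was in part a condition of being tested.

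Ece1 (ENSMUSG00000057530, chr4:137862237-137965229, plus strand) ran opposite to its substrate's gene. It had 219, 226, 255, 218 and 201 CPM in descending BAPN libraries and 300.4, 295, 325, 345 and 239 CPM in ascending BAPN libraries. With water it had 191, 185, 207, 182 and 190 CPM in the descending and 226, 248, 295, 316 and 270 CPM in the ascending aorta. The regions did not overlap with water, and with BAPN 1 descending library (255) lay above 1 ascending library (239). The log2 difference was -0.43 (SE 0.08, adjusted p = 0.000288) under BAPN and -0.51 (SE 0.09, adjusted p = 3.72e-05) under water. The ratio of Ece1 to Edn1 within a library, both per kilobase, was 1.65 to 2.04 in descending BAPN, 1.42 to 1.90 in descending water, 4.03 to 4.94 in ascending BAPN and 3.63 to 5.01 in ascending water libraries. This ratio does not depend on how libraries are scaled, and it did not overlap between the regions.

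Ace (ENSMUSG00000020681, chr11:105967945-105989964, plus strand) differed least between the regions. It averaged 522 ± 17 CPM in descending BAPN, 484 ± 22 in descending water, 474 ± 35 in ascending BAPN and 506 ± 19 in ascending water libraries (SD, n = 5 each). Its log2 difference between regions was 0.14 (SE 0.05, adjusted p = 0.0194) under BAPN, a 1.1-fold higher level, and -0.06 (SE 0.05, adjusted p = 0.326) under water. The call under BAPN was lost on leaving out ascending BAPN 2 (adjusted p = 0.0635) or 5 (0.0653), or descending BAPN 3 (0.0634).

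**Figure D3:**
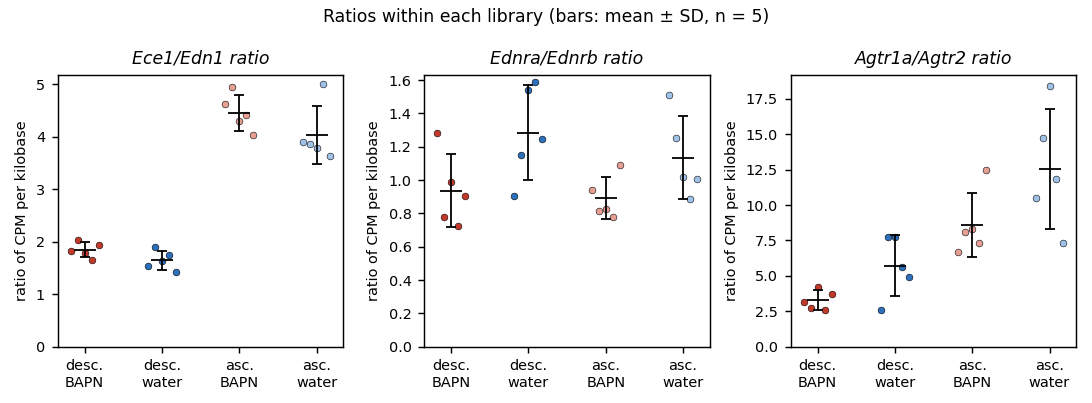
Ratio of the levels per kilobase of 2 genes in each library, with the mean and SD of 5 libraries, in descending BAPN, descending water, ascending BAPN and ascending water. The ratio of Ece1 to Edn1 lies between 1.42 and 2.04 in descending and between 3.63 and 5.01 in ascending libraries, while the ratio of Ednra to Ednrb overlaps among all 4 groups. The ratio of Agtr1a to Agtr2 is lower in descending BAPN (2.61 to 4.24) than in either ascending group (6.67 to 18.4), and descending water (2.60 to 7.76) overlaps all of them.

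Among the angiotensin receptors, Agtr1b (ENSMUSG00000054988, chr3:20314473-20367177, minus strand) had the largest fold difference between regions. It had 39, 20, 14, 20 and 34 counts in descending BAPN libraries against 2, 1, 11, 5 and 3 in ascending BAPN libraries. After water, Agtr1b had 13, 34, 19, 28 and 30 counts in the descending and 5, 9, 7, 4 and 3 in the ascending aorta. No ascending library reached a descending one, and the levels were 5.53-fold higher under BAPN (log2 2.47, SE 0.44, adjusted p = 7.85e-05) and 5-fold higher under water (log2 2.32, SE 0.42, adjusted p = 9.98e-05). Agtr1b passed the filter on low counts through its descending libraries, so this difference was in part a condition of being tested. Without ascending BAPN 3, the ascending BAPN library with 11 counts, the difference under BAPN was 3.08 on the log2 scale. Agtr1a and Agtr1b share a run of 66 bases, and 1.13% of the 50-base stretches of Agtr1a occur in Agtr1b, so a small part of their reads could be assigned to either or dropped, depending on the counting.

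Agtr1a (ENSMUSG00000049115, chr13:30336441-30382867, plus strand), the main type 1 receptor gene of mouse vessels, had 5.38, 5.30, 5.62, 4.65 and 5.76 CPM in descending BAPN libraries and 6.64, 5.80, 6.17, 6.45 and 8.46 CPM in ascending BAPN libraries. After water, Agtr1a had 3.69, 4.8, 4.19, 4.03 and 5.28 CPM in the descending and 5.68, 6.16, 4.48, 5.20 and 4.25 CPM in the ascending aorta. The regions did not overlap with BAPN and overlapped with water. Its log2 difference, -0.32 (SE 0.13, adjusted p = 0.0585) under BAPN and -0.23 (SE 0.13, adjusted p = 0.216) under water, was not called, although under BAPN it was with upper-quartile scaling (adjusted p = 0.0453), with a stricter filter (0.0493), in a fit of the 2 groups alone (0.0499) and without ascending BAPN 2 (0.0426). The ratio of Agtr1a to Agtr1b, both per kilobase, was 1.90 to 5.28 in descending BAPN and 1.77 to 4.27 in descending water libraries. It was 8.27 to 73.2 in ascending BAPN and 9.50 to 22.1 in ascending water libraries, where it rests on 1 to 11 counts of Agtr1b. Agtr1a was thus the more abundant type 1 transcript everywhere, by a wider margin in the ascending aorta.

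Agtr2 (ENSMUSG00000068122, chrX:21484544-21489164, plus strand) had 2.02, 2.32, 1.58, 2.12 and 1.86 CPM in descending BAPN libraries and 1.19, 0.855, 0.888, 1.05 and 0.809 CPM in ascending BAPN libraries. With water it had 1.69, 0.739, 0.645, 0.859 and 1.29 CPM in the descending and 0.648, 0.500, 0.290, 0.525 and 0.692 CPM in the ascending aorta. The regions did not overlap with BAPN, and with water 1 descending library (0.645) lay below 2 ascending ones. The levels were 2.05-fold higher in the descending aorta under BAPN (log2 1.04, SE 0.26, adjusted p = 0.00271) and 1.98-fold higher under water (log2 0.99, SE 0.29, adjusted p = 0.0116). Without descending water 1 the call under water was lost (adjusted p = 0.0667).

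Both endothelin receptors were lower in the descending aorta. Ednra (ENSMUSG00000031616, chr8:77663031-77724464, minus strand) had 17.7, 12.9, 12.9, 11.6 and 16.1 CPM in descending BAPN libraries and 21.6, 21.1, 21.4, 22.5 and 21 CPM in ascending BAPN libraries. The water groups had 16.1, 14.2, 13.7, 16.4 and 15.3 CPM in the descending and 24.2, 20.3, 21.5, 22.1 and 20.5 CPM in the ascending aorta. No descending library reached an ascending one. The log2 difference was -0.59 (SE 0.09, adjusted p = 8.84e-06) under BAPN and -0.52 (SE 0.09, adjusted p = 4.18e-05) under water, a 1.51-fold and a 1.43-fold lower level. An overlapping gene on the other strand, 4933431K23Rik, had 72 counts over the 20 libraries.

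Ednrb (ENSMUSG00000022122, chr14:103814625-103844402, minus strand) had 10.7, 12.9, 10.2, 12.5 and 13.9 CPM in descending BAPN libraries and 18, 20.2, 20.1, 22.5 and 15 CPM in ascending BAPN libraries. After water, Ednrb had 13.9, 9.61, 6.93, 8.05 and 9.57 CPM in the descending and 12.5, 12.7, 16.4, 19.4 and 15.9 CPM in the ascending aorta. The regions did not overlap with BAPN, and with water descending library 1 (13.9) lay above 2 ascending ones. The log2 difference was -0.67 (SE 0.15, adjusted p = 0.000912) under BAPN and -0.68 (SE 0.15, adjusted p = 0.00107) under water, a 1.59-fold and a 1.6-fold lower level. The ratio of Ednra to Ednrb, both per kilobase, averaged 0.937 in descending BAPN, 1.28 in descending water, 0.891 in ascending BAPN and 1.13 in ascending water libraries, with overlap among the groups. Which receptor was the more abundant depended on the length used: with the longest transcript the ratio was 1.05 to 2.31, above 1 in all 20 libraries.

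**Figure D4:**
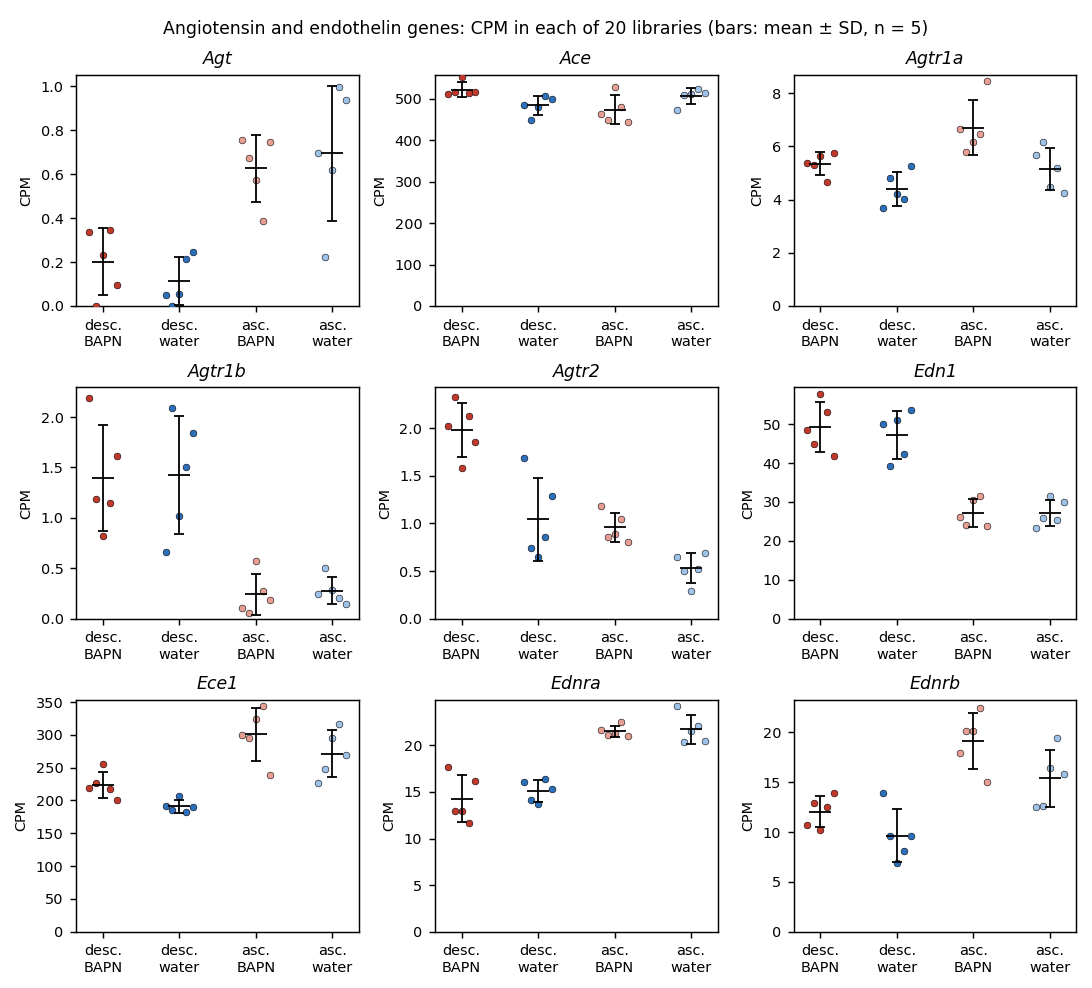
CPM of each gene in each of the 20 libraries, with the mean and SD of 5 libraries per group, in descending BAPN, descending water, ascending BAPN and ascending water. Edn1 lies at 39.2 to 57.7 CPM in descending and 23.4 to 31.6 CPM in ascending libraries, and Agtr2 with BAPN lies at 1.58 to 2.32 CPM in descending and 0.809 to 1.19 CPM in ascending libraries.

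Markers of several cell types also differed between the regions, where 29.8% of all tested genes were called under BAPN and 27.3% under water. All 6 mesothelial markers were lower in the descending aorta under both treatments, with summed levels of 0.904 to 13 CPM in descending BAPN and 1.47 to 12.3 in descending water libraries, against 227 to 298 in ascending BAPN and 221 to 399 in ascending water libraries. All 8 cardiomyocyte markers were lower as well, with 73.4 to 85.0 CPM in descending BAPN and 71.3 to 84.9 in descending water libraries, against 774 to 1377 in ascending BAPN and 474 to 1092 in ascending water libraries. Of 8 adventitial fibroblast markers, 4 were lower and 1 higher under either treatment, summing to 2443 to 3005 CPM in descending BAPN and 2715 to 2970 in descending water libraries, against 3930 to 4344 in ascending BAPN and 3966 to 4381 in ascending water libraries. Of 8 Schwann cell markers, cells in which Ednrb is also known, 6 were lower under BAPN and 5 under water, summing to 15.4 to 20.4 CPM in descending BAPN and 18.2 to 22.3 in descending water libraries, against 28.5 to 36.2 in ascending BAPN and 34.7 to 38.1 in ascending water libraries. Of 6 tested melanocyte markers, another cell type known for Ednrb, 5 were lower under each treatment, and Mitf, a transcription factor not particular to these cells, was higher under BAPN (log2 0.48, SE 0.08). Without Mitf the list summed to 0.619 to 1.13 CPM in descending BAPN and 0.493 to 1.83 in descending water libraries, against 15.8 to 34.5 in ascending BAPN and 8.05 to 18.2 in ascending water libraries. Of 5 tested pericyte markers, 3 went the other way and were higher under both treatments (Kcnj8, Abcc9 and Rgs5). Rgs5 is also a gene of smooth muscle, and Notch3 and Pdgfrb were not called. The pericyte list had sums of 1191 to 1346 CPM in descending BAPN and 1259 to 1414 in descending water libraries, against 858 to 949 in ascending BAPN and 838 to 958 in ascending water libraries. Of 7 brown adipocyte markers, 3 were higher under both treatments, with 1 lower under BAPN and 2 under water. Among them Ucp1, the uncoupling protein of brown fat, averaged 59.8 CPM in descending BAPN, 38.4 in descending water, 5.96 in ascending BAPN and 6.80 in ascending water libraries. Of 6 tested mast cell markers, Hdc was lower under both treatments, and Cma1 and Mcpt4 under water. Of 6 white adipocyte markers, 2 were higher under water, and of 8 macrophage markers, Cd163 was higher under both. No marker of these lists was at 0 in all libraries. Their part in the regional differences of the 9 genes was not tested.

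The summed endothelial and smooth muscle markers differed less, although single endothelial markers differed widely and in both directions. Kdr averaged 5.69 CPM in descending BAPN and 36.4 in ascending BAPN libraries, and 5.21 and 39.0 with water. Vwf averaged 430 and 235 CPM with BAPN and 434 and 278 with water, in the same order. The summed level of 12 endothelial markers was 1589 to 1855 CPM in descending BAPN and 1486 to 1734 in descending water libraries, against 1347 to 1622 in ascending BAPN and 1232 to 1777 in ascending water libraries, with 3 members higher and 4 lower under BAPN and 1 higher and 4 lower under water. The sum of 8 smooth muscle markers was 22546 to 25048 CPM in descending BAPN and 18906 to 21520 in descending water libraries, against 22164 to 24599 in ascending BAPN and 19011 to 20963 in ascending water libraries. Smooth muscle sums did not separate the regions, with 1 marker (Des) lower in the descending aorta under each treatment. They lay above those with water under BAPN in both regions. Acta2 and Myocd were the 2 markers of 8 that rose with BAPN in each region, where 6.18% (descending) and 3.44% (ascending) of all genes did. Acta2, smooth muscle actin, made up most of the sum, averaging 15084 CPM in descending BAPN, 11926 in descending water, 14272 in ascending BAPN and 11452 in ascending water libraries.

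On 33 genes whose symbols carry -ps, taken as pseudogenes, the libraries fell into 2 sets. The set with more of these transcripts, called the higher set, held descending water 1, 2 and 5, ascending BAPN 1 to 5 and ascending water 4 and 5. The lower set held descending BAPN 1 to 5, descending water 3 and 4 and ascending water 1 to 3. No label names these sets. The BAPN groups lie wholly in different sets, so under BAPN region and set can be told apart only through the water libraries. With the set as a term, 5 members were called under BAPN, and the calls of Agt (log2 -1.002, adjusted p = 0.426), Ace (0.14, 0.145) and Ednrb (-0.23, 0.461) were lost. Under water, the log2 difference within the higher and the lower set was 0.77 and 0.79 for Edn1, -0.64 and -0.40 for Ece1, 3.03 and 1.87 for Agtr1b, -0.49 and -0.55 for Ednra and -0.68 and -0.89 for Ednrb, all called in each set. Agtr2, at 1.02 and 0.67, was called in neither set (adjusted p = 0.19 and 0.46), and Agt was called in the higher set (-3.25, adjusted p = 0.0096) but not in the lower (-1.92, adjusted p = 0.146).

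BAPN was compared with water within each region. The clearest response was that of Agtr2, which rose in the descending aorta, where its BAPN and water values given above put 24 of 25 pairs of libraries higher with BAPN. In the descending aorta Agtr2 was the 1 member called, against 10.7% of tested genes, with a 1.88-fold higher level (log2 0.91, SE 0.25, adjusted p = 0.0202). That call was lost without descending water 2 (adjusted p = 0.0623), 3 (0.0672) or 4 (just above 0.05) and with no filter on low counts (0.0552), and within the lower pseudogene set it was kept (log2 1.38, adjusted p = 0.0382). In the ascending aorta no member was called, against 6.34% of tested genes. By edgeR 4 of the 9 had an unadjusted p under 0.05 there, as did 3137 of all 15543 tested genes. DESeq2 and limma-voom also called 0 of the 9. Agtr2 had a log2 difference of 0.86 (SE 0.29, adjusted p = 0.0828) in the ascending aorta, with no overlap between BAPN libraries (0.809 to 1.19 CPM) and water libraries (0.290 to 0.692 CPM). Agtr2 was the 1 member without overlap there, against 7.51% of tested genes. Within the higher set its log2 difference was 0.65 (adjusted p = 0.435).

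The median log2 difference of the members was 0.23 in the descending and 0.001 in the ascending aorta, against 0 and -0.005 over all tested genes. Neither ligand precursor was called. Edn1 differed by 0.06 (SE 0.10, adjusted p = 0.803) in the descending and by 0.00 (SE 0.10, adjusted p = 0.997) in the ascending aorta. Agt differed by 0.80 (SE 0.70, adjusted p = 0.546) and -0.16 (SE 0.43, adjusted p = 0.888), with errors that leave its response undetermined at this depth. Ace differed by 0.11 (SE 0.05, adjusted p = 0.138) in the descending aorta, where it was the 1 member without overlap, against 7.38% of tested genes, with 512 to 553 CPM in BAPN and 450 to 508 CPM in water libraries. Ace differed by -0.10 (SE 0.05, adjusted p = 0.23) in the ascending aorta. Among the receptors, Agtr1b differed by -0.01 (SE 0.35, adjusted p = 0.994) in the descending and -0.16 (SE 0.54, adjusted p = 0.914) in the ascending aorta. Ednra differed by -0.08 (SE 0.09, adjusted p = 0.652) and -0.01 (SE 0.09, adjusted p = 0.954).

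**Figure D5:**
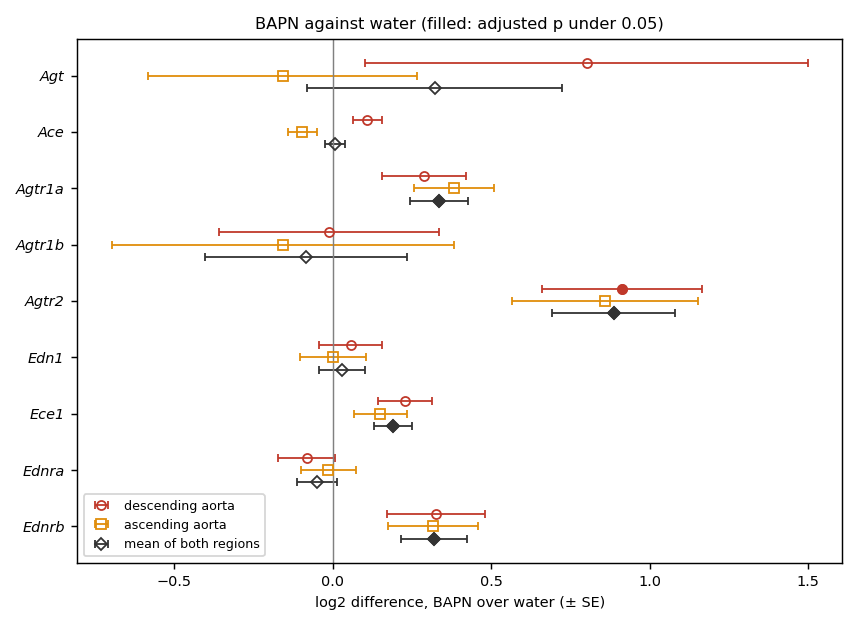
Log2 difference (± SE) between BAPN and water for each gene, in the descending aorta (red circles), in the ascending aorta (orange squares) and as the mean of both regions (black diamonds), with filled symbols for an adjusted p under 0.05. Agtr2 lies farthest to the right in all 3, at 0.91, 0.86 and 0.89, and Edn1 lies at 0.06, 0.00 and 0.03.

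Averaged over both regions, which uses the same libraries with more of them on each side, 4 members rose with BAPN, against 9.47% of tested genes that were higher, 8.02% that were lower and 17.5% called in either direction. Whether same-numbered libraries of the 2 regions came from the same animals was not given in the sources used here. The fit treated them as independent, so these p-values may be too small if they did. Agtr2 rose 1.85-fold (log2 0.89, SE 0.19, adjusted p = 0.00186) and Agtr1a 1.26-fold (log2 0.34, SE 0.09, adjusted p = 0.0119), and both calls were kept on leaving out any 1 library. Ednrb rose as well (log2 0.32, SE 0.11, adjusted p = 0.0361) and Ece1 1.14-fold (log2 0.19, SE 0.06, adjusted p = 0.0286). These 2 calls were less firm. That of Ednrb was lost with upper-quartile scaling (adjusted p = 0.0507) and without any of 11 single libraries (adjusted p up to 0.0768), namely descending BAPN 2, 4 or 5, descending water 2, 3 or 4, ascending BAPN 2, 3 or 4 and ascending water 1 or 2. That of Ece1 was lost without descending BAPN 3, ascending BAPN 3 or 4, or ascending water 1 or 2 (adjusted p up to 0.0631). Smooth muscle marker sums, given above, were also higher with BAPN. Of the 8 smooth muscle markers, 3 (Myh11, Acta2 and Myocd) were called higher in this mean and 0 lower. Of 8 cardiomyocyte markers, 3 (Tnnt2, Myl3 and Actn2) rose with BAPN in the ascending aorta, where 3.44% of all genes did. The mean sums were 1024 CPM in ascending BAPN and 761 in ascending water libraries. Mitf rose in the descending aorta (log2 0.36, SE 0.08). Their part in these results was not tested.

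By region, the responses of Agtr1a, Ece1 and Ednrb were not called. Agtr1a differed by 0.29 (SE 0.13, adjusted p = 0.187) in the descending and 0.38 (SE 0.13, adjusted p = 0.0738) in the ascending aorta, where it was called without ascending water 2 (adjusted p just under 0.05). Ece1 differed by 0.23 (SE 0.09, adjusted p = 0.0895) in the descending and 0.15 (SE 0.08, adjusted p = 0.333) in the ascending aorta. In the descending aorta Ece1 was called with no filter on low counts (adjusted p = 0.0173), with the replicate number as a block (0.0342), in a fit of the 2 groups alone (0.0263) and without ascending BAPN 5 (0.048).

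The estimated response of Ednrb moved when the pseudogene sets were taken into account. Each BAPN group lies in 1 set, so a response that depends on set cannot be told apart from one that depends on region. It differed by 0.33 (SE 0.16, adjusted p = 0.204) in the descending and 0.32 (SE 0.14, adjusted p = 0.21) in the ascending aorta. Within the lower set, which holds all 5 descending BAPN libraries and descending water 3 and 4, the descending difference was 0.68 (SE 0.15, adjusted p = 0.0243), and without descending water 1 it was called as well (adjusted p = 0.0301). Within the higher set, which holds all 5 ascending BAPN libraries and ascending water 4 and 5, the ascending difference was 0.12 (SE 0.13, adjusted p = 0.71). With the set as a term, Ednrb stood at 0.61 (SE 0.15, adjusted p = 0.0142) in the descending and 0.06 (SE 0.14, adjusted p = 0.888) in the ascending aorta.

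No member's response to BAPN was shown to differ between the regions. By edgeR 0 of 15543 genes were called for the difference of responses, with 1070 at an unadjusted p under 0.05, while DESeq2 called 14 and limma-voom 0. Of the 9, 1 (Ace) had an unadjusted p under 0.05, and edgeR, DESeq2 and limma-voom each called 0. The difference for Ace was 0.21 (SE 0.06, adjusted p = 0.408). For Agtr2 the difference was 0.05 (SE 0.43, adjusted p = 0.992) and for Agtr1a -0.09 (SE 0.18, adjusted p = 0.971).

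Other genes of the angiotensin pathway were read from a list of 24, of which 19 were tested. Between regions, 4 were higher and 4 lower under BAPN, where 29.8% of all genes were called, and 4 higher and 5 lower under water, where 27.3% were, with a median log2 difference of -0.02 and -0.07, against 0.009 over all genes. Ren1, renin itself, had the smallest p of the list. It averaged 0.370 ± 0.225 CPM in descending BAPN libraries and 14.2 ± 2.87 in ascending BAPN libraries, and 0.559 ± 0.247 in descending water libraries and 22.3 ± 7.15 in ascending water libraries (SD, n = 5 each). The log2 difference was -5.29 (SE 0.35, adjusted p = 5.74e-12) under BAPN and -5.28 (SE 0.32, adjusted p = 6.85e-13) under water. Ren1 reached the filter's level of 0.547 CPM in all 10 ascending libraries and 4 of 10 descending ones, so it was tested mainly through the ascending aorta. Renin and its substrate's gene were thus both lower in the descending aorta. Of the enzymes that trim angiotensin peptides, 3 went the other way. Enpep, the aminopeptidase A that trims angiotensin II, was higher in the descending aorta by a log2 difference of 0.97 (SE 0.08) under BAPN and 0.85 (SE 0.08) under water, and Mme, neprilysin, by 0.80 (SE 0.08) and 0.57 (SE 0.08). Prcp, the carboxypeptidase that cuts angiotensin II to angiotensin-(1-7), was higher by 0.43 and 0.27 (SE 0.05 each). Anpep, aminopeptidase N, was lower under both treatments, at -0.28 and -0.44 (SE 0.07 each). Mas1, a receptor of angiotensin-(1-7), was barely detected, with 31, 27, 31 and 46 counts summed over the descending BAPN, descending water, ascending BAPN and ascending water libraries, and was not tested. The list's median response to BAPN was 0.05 in the descending and -0.13 in the ascending aorta, against 0 and -0.005 over all genes. With BAPN, 1 of the 19 was higher and 0 lower in the descending aorta (6.18% and 4.54% of all genes). In the ascending aorta 1 was higher and 1 lower (3.44% and 2.91%). Enpep rose in the descending aorta (log2 0.26, SE 0.08, adjusted p = 0.0255). In the ascending aorta Hsd11b1, which activates glucocorticoids, rose (0.43, SE 0.11, adjusted p = 0.0126) and Prcp fell (-0.19, SE 0.05, adjusted p = 0.0196).

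The endothelin list held 12 further genes, of which 10 were tested, with 4 higher and 3 lower in the descending aorta under BAPN (29.8% of all genes called) and 4 higher and 4 lower under water (27.3%; median log2 0.11 and 0.09). Edn3, the endothelin with high affinity for Ednrb but not Ednra, averaged 2.27 ± 0.54 CPM in descending BAPN and 0.301 ± 0.154 in ascending BAPN libraries, and 2.60 ± 0.59 in descending water and 0.460 ± 0.224 in ascending water libraries (SD, n = 5 each). Its log2 difference was 2.87 (SE 0.32, adjusted p = 8.76e-08) under BAPN and 2.48 (SE 0.29, adjusted p = 1.92e-07) under water, in the same direction as that of Edn1. It reached the filter's level of 0.547 CPM in all 10 descending libraries and 2 of 10 ascending ones, so its difference too was in part a condition of being tested. Pcsk5, a proprotein convertase related to furin, was higher by 0.77 (SE 0.06) and 0.54 (SE 0.06). Furin, which cuts preproendothelin before Ece1 does, was higher by 0.21 (SE 0.05) under BAPN and differed by 0.13 (SE 0.05, adjusted p = 0.0608) under water. Pcsk6, another convertase, was lower under both, at -0.22 and -0.27 (SE 0.06 each). Edn2 had 14 to 21 counts summed over a group and was not tested. With BAPN, Furin rose in the descending aorta (log2 0.21, SE 0.05, adjusted p = 0.00919), with a list median of 0.04. It was the 1 gene of 10 called there, where 10.7% of all genes were. For the ascending aorta (median -0.02), edgeR called 0 genes of the list, against 6.34% of all genes, and DESeq2 and limma-voom called 0. There 3 of the list had an unadjusted p under 0.05 by edgeR, as did 3137 of all 15543 genes.

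Downstream, a list of 31 signalling genes of these receptors had 30 tested. With BAPN, 7 were higher and 2 lower in the descending aorta, and 7 were higher and 0 lower in the ascending aorta (median log2 0.07 and 0.02), where the shares over all genes were 6.18% and 4.54% and then 3.44% and 2.91%. Rock2, a kinase activated by RhoA, rose in both, at 302 ± 16 CPM with BAPN and 237 ± 10 with water in the descending aorta, and at 294 ± 10 with BAPN and 234 ± 8 with water in the ascending aorta (log2 0.35 and 0.33, SE 0.04 each). Grk5, which desensitises receptors, rose by 0.37 (SE 0.05) in each region. Rock1 rose by 0.43 in the descending and 0.33 in the ascending aorta (SE 0.07 each), and Plcb4, a Gq effector, by 0.18 and 0.23 (SE 0.05 each). Rgs2, an inhibitor of Gq, fell by 0.59 (SE 0.10) on the log2 scale in the descending aorta and differed by -0.33 (SE 0.11, adjusted p = 0.0662) in the ascending aorta. Rgs5, a regulator of G protein signalling in pericytes and smooth muscle, rose by 0.26 (SE 0.05) in the ascending aorta and differed by -0.06 (SE 0.05, adjusted p = 0.567) in the descending aorta. By edgeR neither difference of responses was called (adjusted p = 0.787 for Rgs2 and 0.216 for Rgs5). Between regions, 7 were higher and 9 lower under BAPN (14.2% and 15.6% of all genes) and 5 higher and 8 lower under water (12.1% and 15.2%). Rgs5 was higher in the descending aorta by 0.99 under BAPN and 1.31 under water. Rgs16 was lower, at -3.36 and -3.69, although Rgs16 passed the filter through its ascending libraries alone.

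Of 15 tested genes that angiotensin II is known to induce, 2 rose with BAPN in the descending aorta, where 6.18% of all tested genes did. These were Fn1, encoding fibronectin (log2 0.20, SE 0.05, adjusted p = 0.00798), and Thbs1, encoding thrombospondin 1 (0.41, SE 0.13, adjusted p = 0.035). The median of the list was 0.09. In the ascending aorta, with a median of -0.15, edgeR called 0 of them, against 6.34% of all genes, while DESeq2 and limma-voom called 1 each. There 5 of them had an unadjusted p under 0.05 by edgeR, as did 3137 of all 15543 genes. Between regions 1 was higher and 5 lower under BAPN (14.2% and 15.6% of all genes) and 1 higher and 6 lower under water (12.1% and 15.2%), with a median log2 of -0.19 and -0.29. The higher gene was Fn1, and Spp1 (osteopontin) was lower, at -4.19 (SE 0.29) under BAPN and -5.09 (SE 0.29) under water, but reached the filter's level in 4 of 10 descending libraries.

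To describe which genes the members vary with, log2 CPM was correlated over the 20 libraries with 10649 genes averaging at least 5 CPM. These libraries share regions and treatments, so the values mostly reflect the 4 groups. Edn1 was most like Ppef1 (r = 0.95), Acvrl1 (0.95) and Bmp6 (0.95), Ednra like Slc5a3, Eya4 and Add3 (0.93 each), Ednrb like Slc43a3 (0.93), Tpm4 (0.89) and Arhgap29 (0.88), Agtr1b like Rgs7 (0.92), Derl1 (0.91) and Col6a3 (0.91), and Agtr2 like Mmp3 (0.91), Phtf2 (0.89) and Sec61a1 (0.88). Ece1 was most like Arrb1 (0.94), F11r (0.93) and Ptpn14 (0.93), Agtr1a like Gne (0.87), and Ace like Mocs3 (0.78). For deviations from the group means, which remove region and treatment, Ece1 went most with Epas1 (0.91), Heg1 (0.88) and Sik1 (0.86). The summed endothelial markers went with these deviations at r = 0.84 for Ece1, 0.65 for Edn1, 0.59 for Ace and 0.53 for Ednrb, but at -0.15 for Ednra. Between members the largest such values were 0.65 for Edn1 with Ece1, 0.63 for Ace with Edn1 and 0.62 for Ace with Ece1. Within a group, then, libraries with more endothelial transcripts tended to have more of both enzymes and of Edn1.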

How the data were processed

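RNA of descending and ascending thoracic aorta was sequenced in 20 libraries, 5 in each of 4 groups, and each region was read from the first letter of the sample name. The values the authors deposited are raw counts for 54532 Ensembl genes, and all 20 library files hold the values of the joint table. The tools named, per the submitters' processing notes, are HTSeq 0.6.1, STAR 2.5 and fastp, with the mm10 build; settings, annotation and strand are not given in the sources used here, and a read that fits 2 genes or both strands may be lost or misassigned. Symbols and coordinates come from GENCODE M21 on GRCm38 (54409 IDs matched, 123 did not), and promoters from RefSeq (GRCm38.p6).

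Genes were kept by filterByExpr (minimum count 10, minimum total 15), which left 15543. Library sizes were corrected with TMM, and all comparisons were contrasts of 1 quasi-likelihood fit (edgeR 4.0.16 in R 4.3.3; 4 group coefficients, 16 residual degrees of freedom), with Benjamini-Hochberg adjustment. The code was tested on simulated counts. Alternatives were relative log expression and upper-quartile factors, no filter, a stricter filter (1 CPM in 5 libraries), DESeq2 1.42.0, limma 3.58.1 with voom, a block for the replicate number, a fit of the compared groups alone, the pseudogene set as a term or as a limit, the longest transcript, and leaving out each library.

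Members, lists and tests were chosen with earlier results of these data known. From each pathway list, at most 4 called genes with the smallest p per comparison are named, and further genes (Mas1 and Edn2) for their low counts; 1 other gene is not reported here. Likeness names at most the 3 genes with the highest r, none for Agt, and for deviations from group means only those of Ece1. The replicate numbers may pair descending with ascending BAPN libraries, since deviations of same-numbered libraries from their group means correlated at 0.15 to 0.464 over 5000 genes. The main fit did not use this pairing and treated all libraries as independent. Among the water libraries 4 of 5 pairs correlated at 0.24 to 0.593 and 1 at -0.069, so not every pair passed 0.1 and no pairing was assumed, as between BAPN and water. Every descending BAPN library correlated best with the same-numbered ascending one, as did descending water 2, 3 and 5. As a further alternative, the replicate number was a block within treatment. This fit called 8 members between regions under BAPN and 7 under water. Depth was 15744725 to 23292294 counts per library, which limits the members under about 1 CPM.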

Additional observations from a re-analysis of the deposited data

Results flagged for a closer look

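Of 36 combinations of a gene and a group, 1 held a library far from the other 4, and chance gives about 1 in 20. Ace had 553 CPM in descending BAPN library 3, against 512, 514, 516 and 517 CPM in the other descending BAPN libraries. The gap was 0.88 of the group's range, above the limit of 0.71 for 5 values. Without this library the log2 difference of Ace was 0.09 (adjusted p = 0.296) between BAPN and water in the descending aorta and 0.12 (adjusted p = 0.0634) between descending and ascending aorta under BAPN.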

How the results depend on the processing

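The number of members called for BAPN against water in the descending aorta was 1 and became 2 with the replicate block, with the pseudogene set as a term, in the 2 groups alone and within the lower set; the second was Ece1 under the block and in the 2 groups alone, and Ednrb under the other 2. For the descending against the ascending aorta under BAPN it went to 5 with the set as a term. Leaving out each library gave 0 to 2 members in that descending comparison, 0 to 1 in the ascending aorta, 2 to 4 for the mean of both regions (4 in all), 7 to 8 between regions under BAPN, 6 to 7 under water and 0 for the difference of responses. The replicate block changed no other member's call, and no scaling moved the median of all genes by over 0.05. Over all genes, the count called with the set as a term was 542 in place of 986 for BAPN in the ascending aorta and 2755 in place of 4626 between regions under BAPN. Within the sets it was 483 for BAPN in the ascending aorta, 430 in place of 1667 in the descending aorta, and 2537 and 2601 in place of 4243 between regions under water, with fewer libraries. For the difference of responses it was 41 with no filter, 14 with DESeq2 and 20 with a block within treatment, in place of 0. Differences near 0 changed sign. Edn1 in the ascending aorta, 0.001, became -0.002 with relative log expression factors and with DESeq2, -0.012 with upper-quartile factors, -0.011 with no filter, -0.001 with voom, -0.02 with the set as a term and -0.023 within the higher set. Agtr1b in the descending aorta, -0.012, became 0.054 with voom, 0.012 with the replicate block and 0.142 within the lower set. Ednra in the ascending aorta became 0.014 within the higher set, the mean response of Ace became -0.013 with upper-quartile factors and -0.001 with no filter, and the difference of responses of Ednrb became -0.005 with upper-quartile factors. The cause was not tested.

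Leaving out 1 library also turned the sign of small responses. In the ascending aorta these ran from -0.775 to 0.119 for Agtr1b, from -0.057 to 0.059 for Edn1 and from -0.04 to 0.028 for Ednra, and in the descending aorta from -0.23 to 0.164 for Agtr1b and from -0.008 to 0.111 for Edn1. The mean of both regions ran from -0.394 to 0.052 for Agtr1b, from -0.004 to 0.058 for Edn1 and from -0.015 to 0.017 for Ace. The difference of responses ran from -0.134 to 0.762 for Agtr1b, from -0.081 to 0.306 for Agtr2, from -0.163 to 0.001 for Agtr1a, from -0.008 to 0.113 for Edn1 and from -0.09 to 0.188 for Ednrb. None of these was called. Agt, Agtr1b and Agtr2 rest on few counts, so their fold changes are the least precise of the 9.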

Other observations

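Receptors for other constrictors also differed by region. Of 13 tested, 8 were higher and 4 lower in the descending aorta under each treatment, where 14.2% and 15.6% of all genes were under BAPN and 12.1% and 15.2% under water. Some of the lower ones passed the filter on low counts through their ascending libraries, so their calls were in part a condition of being tested. Avpr1a, a vasopressin receptor, averaged 5.88 ± 0.90 CPM in descending BAPN and 0.621 ± 0.274 in ascending BAPN libraries, and 5.80 ± 1.02 in descending water and 0.668 ± 0.378 in ascending water libraries (SD, n = 5 each), a log2 difference of 3.23 (SE 0.27) under BAPN and 3.1 (SE 0.26) under water. P2rx1, an ATP-gated channel of smooth muscle, was higher by 1.09 (SE 0.08) and 1.15 (SE 0.08), while F2r, the thrombin receptor, was lower, at -0.56 (SE 0.05) and -0.63 (SE 0.05), as was Adra1b, an adrenoceptor, at -1.12 (SE 0.13) and -0.97 (SE 0.13). With BAPN, 2 rose and 1 fell in each region (6.18% and 4.54% of all genes in the descending, 3.44% and 2.91% in the ascending aorta). Htr1b, a serotonin receptor, rose by 0.41 (SE 0.11) in each, F2r rose by 0.25 (SE 0.05) in the descending and 0.18 (SE 0.05) in the ascending aorta, and P2rx1 fell by 0.37 (SE 0.08) and 0.31 (SE 0.09).

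Of 15 tested genes of the nitric oxide, natriuretic peptide and prostacyclin arm, 1 was higher and 7 lower in the descending aorta under BAPN (14.2% and 15.6% of all genes). Under water 1 was higher and 6 were lower (12.1% and 15.2% of all genes). The higher one was Npr1, the receptor of atrial natriuretic peptide, at 306 ± 8 CPM in descending BAPN and 189 ± 7 in ascending BAPN libraries, and at 292 ± 11 in descending water and 183 ± 5 in ascending water libraries (log2 0.70 and 0.67, SE 0.04 each). Gucy1a1, a subunit of the nitric oxide receptor, was lower, at -0.48 (SE 0.05) under BAPN and -0.42 (SE 0.05) under water. Nppc, encoding C-type natriuretic peptide, had 0 and 2 counts summed over descending BAPN and descending water libraries, and 78 and 153 over ascending BAPN and ascending water libraries. It passed the filter on low counts through its ascending libraries alone, so its lower level was in part a condition of being tested. With BAPN, Prkg1, the cyclic GMP-dependent kinase, rose by 0.30 (SE 0.07) in the descending and 0.38 (SE 0.07) in the ascending aorta, and Ptgis, prostacyclin synthase, and Pde5a, a cyclic GMP phosphodiesterase, rose by 0.21 (SE 0.05) and 0.22 (SE 0.06) in the descending aorta.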
